A study of Mus musculus with 6 samples.

Results

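The mitochondrially encoded genes are the 37 genes that the counted annotation places on mouse chromosome M, out of 47729 genes in all. They are 13 mRNA genes, 2 rRNA genes and 22 tRNA genes. They were taken by chromosome alone, with no measured value in the choice, and 30 of them held a count in at least 1 library. The libraries came from lung endothelial cells (ECs) of male mice that were 14 weeks old and had received angiotensin II (AngII) at 1000 ng/kg/min from an osmotic pump for 2 weeks. Both groups had this infusion, so no uninfused mouse enters the comparison. WT littermates were set against leene-KO mice, which lack the long noncoding RNA gene leene in every tissue after CRISPR deletion on a C57BL6 background. There were 3 WT and 3 KO libraries, and cells of 3 mice per group were pooled before RNA extraction. The sources do not say whether each library came from its own pool, so all p-values measure the spread between these libraries, which may be technical. The genotype is as labelled, since leene is not among the counted genes and its loss was not checked here.

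Mitochondrial DNA is a small circle that is transcribed from both strands into long precursors, which are cut at the tRNAs that lie between the mRNAs and rRNAs. The mRNAs, most of which receive short poly(A) tails, encode core subunits of respiratory complexes I, III, IV and V. The rRNAs and tRNAs serve the ribosomes that translate these mRNAs inside the organelle. Every protein that copies, transcribes or processes mitochondrial DNA and its RNA is encoded in the nucleus. In lung ECs, as in other cells, mitochondrial transcripts are among the most abundant poly(A) RNAs.

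Total counts ran from 24464324 to 35184063 per library. The label of ECs was checked against markers: all 8 endothelial marker genes were detected and summed to between 1109 and 2436 CPM (counts scaled to 1000000 per library, with a correction for composition). Alveolar type II cell markers summed to between 4934 and 46390 CPM and club cell markers to between 15349 and 56766 CPM, so the libraries also held RNA of other lung cells. In such mixed RNA, fewer cells of a type and less RNA per cell cannot be told apart.

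Mouse chromosome 1 holds a copy of part of the mitochondrial DNA, and the genes inside the copied part held almost no counts. The copy covers positions 6394 to 11042 of chromosome M and lies at chr1:24611535-24616184 on the minus strand (GRCm38), in collinear stretches of 3410 and 1166 bases. It carries 7 annotated pseudogenes, of which 5 match their mitochondrial gene over every base compared. The sequences below, from the GENCODE M21 transcripts on GRCm38, show how closely they match. The first pair crosses the edge of the copy inside mt-Co1 (chrM:6381-6429, plus strand, and chr1:24616149-24616197, minus strand), with the bases that differ in capitals. The second pair is the start of mt-Co2 (chrM:7013-7072, plus strand) and of its copy (chr1:24615506-24615565, minus strand), without a difference.
mt-Co1: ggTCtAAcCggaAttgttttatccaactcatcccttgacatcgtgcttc
Gm29216: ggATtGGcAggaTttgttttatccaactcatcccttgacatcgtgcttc
mt-Co2: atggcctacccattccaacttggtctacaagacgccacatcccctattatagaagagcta
Gm28661: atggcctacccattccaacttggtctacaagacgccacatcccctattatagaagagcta

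The authors counted reads with 1 alignment in the genome. For each gene, all windows of 50 bases that touch it and no other gene on its strand were listed, and a window was called shared when a nuclear copy holds the same sequence or lies collinear with it. In 6 mRNA genes at most 7 windows were not shared, and each of these genes had between 0 and 11 counts in every library. They were mt-Co2 and mt-Co3, subunits of complex IV, mt-Atp6 and mt-Atp8, the complex V subunits, and mt-Nd3 and mt-Nd4l of complex I. mt-Atp8 and mt-Nd4l stood at 0 in all 6 libraries, which allows up to 3 counts in each, or 0.123 CPM on total counts in the shallowest library. Complex V had no measurable mitochondrial member here. The counts on the chromosome 1 pseudogenes were also low, from 32 to 37 for Gm28661 (copy of mt-Co2) and from 21 to 38 for Gm28439 (copy of mt-Nd4). Pseudogenes elsewhere held more. Gm13340, which shares windows with mt-Co1, had 1406, 1892 and 1793 counts in the WT libraries, against 4354, 1779 and 1385 in KO, so KO replicate 1 stood apart. Gm13341, a further copy of part of mt-Co2, had 495 to 739 counts and Gm11407, a copy of part of mt-Nd5, 579 to 1059.

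Genes at the ends of the copy were counted in part. mt-Co1 (ENSMUSG00000064351, chrM:5328-6872, plus strand), the catalytic core of complex IV, shared 814 windows, 51.1% of the total. Of these, 479 lie in the chromosome 1 copy and 416 match other pseudogenes, nearly all Gm13340 (411 windows), with 81 in both. mt-Nd4 shared 62.0%, all with the chromosome 1 copy. mt-Nd2 (8.21%), mt-Nd5 (7.40%) and mt-Rnr2 (1.04%) shared short parts with pseudogenes elsewhere. mt-Nd1, mt-Nd6, mt-Cytb and mt-Rnr1 shared none.

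Only 10 of the 22 tRNA genes reached 10 counts in every library. 4 tRNA genes lie wholly within the copy (mt-Ts1, mt-Td, mt-Tk and mt-Tg) and stood at 0 in all 6 libraries, as did mt-Th, which shared no window with an annotated copy. mt-Tr, between the collinear stretches, had 0 to 6 counts, and its nuclear counterpart was not compared. The low but detected tRNAs included mt-Tn with 9 to 24 counts and mt-Ty with 6 to 18. mt-Ts2 had 0 to 2 counts and mt-Tl2 0 to 7. mt-Tf had 34 counts in KO replicate 2 and 4 to 11 in the other libraries. The 4 tRNA genes below are shown whole as examples: mt-Tk (chrM:7700-7764, lysine, plus strand), with no count, and the deeper counted mt-Tl1 (chrM:2676-2750, leucine, plus strand), mt-Te (chrM:14071-14139, glutamate, minus strand) and mt-Tp (chrM:15356-15422, proline, minus strand).
mt-Tk: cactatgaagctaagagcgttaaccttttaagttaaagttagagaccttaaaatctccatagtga
mt-Tl1: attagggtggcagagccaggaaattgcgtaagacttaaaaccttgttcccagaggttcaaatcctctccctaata
mt-Te: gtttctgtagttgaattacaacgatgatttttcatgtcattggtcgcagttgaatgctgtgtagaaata
mt-Tp: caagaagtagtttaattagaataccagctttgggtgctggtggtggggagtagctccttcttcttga

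**Figure D1:**
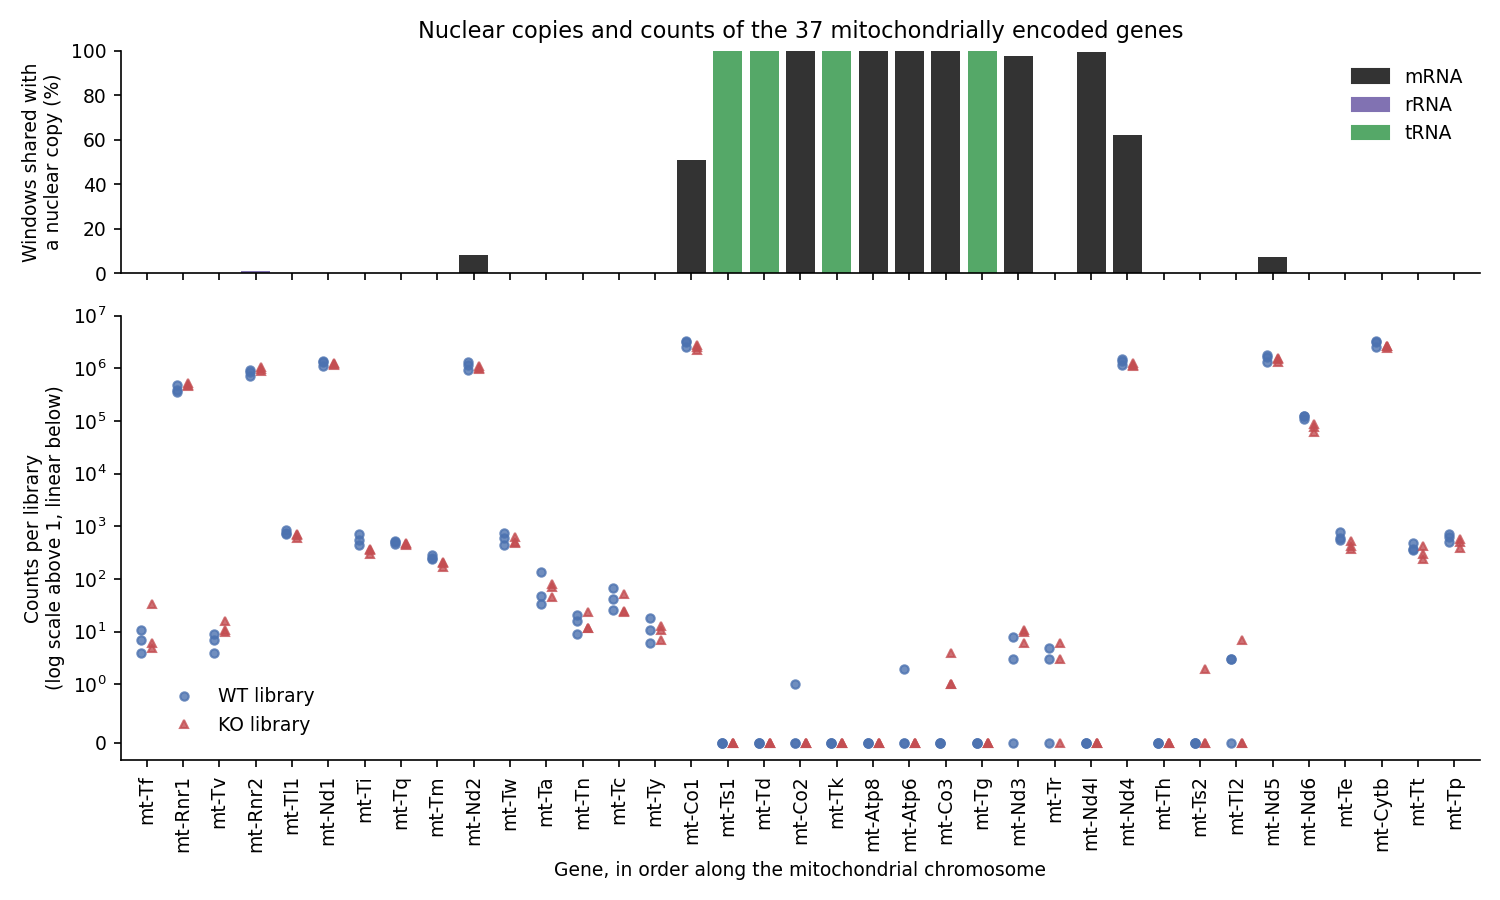
Upper panel, percent of each gene's 50-base windows that are shared with a nuclear copy (mt-Tr was not compared and is drawn at 0); lower panel, counts per library on an axis that is logarithmic above 1, with WT libraries as circles and KO libraries as triangles, for the 37 genes in their order on the chromosome. The 6 mRNA genes with nearly every window shared hold at most 11 counts, while the other 7 mRNA genes hold at least 61988.

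The mitochondrial genes took 37.4%, 38.5% and 54.5% of all counts in the WT libraries (replicates 1, 2 and 3 in that order, as in every list below). In the KO libraries they took 46.2%, 40.4% and 38.2%. WT replicate 3 held the highest share, and the other WT libraries lay near the lowest KO library. The means were 43.4% ± 9.55 in WT and 41.6% ± 4.14 in KO (SD, n = 3 each), a KO minus WT difference of -1.84 percentage points that was well within the spread (exact two-sided permutation test over 20 assignments of the libraries, p = 0.9, where 0.1 is the smallest p that 3 against 3 can give). Without WT replicate 3 the difference turned to 3.66 percentage points, with KO higher. The direction of the overall share rested on that library.

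Most of these counts were mRNA. The mRNA genes alone took between 32.6% and 49.3% of a library and the rRNA genes between 3.02% and 6.07%. The tRNA genes took between 0.0119% and 0.0186%. mt-Co1 and mt-Cytb together supplied between 43.6% and 47.9% of the mitochondrial counts of each library.

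Markers of other cells also varied between libraries. WT replicate 3, with the highest mitochondrial share, had summed alveolar type II markers of 14404 CPM, between 4934 in WT replicate 1 and 46390 in WT replicate 2. Endothelial markers summed to 1109, 1444 and 2236 CPM in the WT libraries, against 2436, 1453 and 1946 CPM in the KO libraries. Malat1 and Neat1, RNAs that stay in the nucleus, summed to 379, 466 and 1677 CPM in the WT libraries, against 1818, 1453 and 1334 CPM in the KO libraries. These sums follow Malat1. Neat1 alone had 78.7, 96.5 and 141 CPM in WT and 103, 106 and 99.3 CPM in KO. With the alveolar type II and club cell marker genes taken out of the total, the KO minus WT difference in mitochondrial share was -0.474 in place of -1.84 percentage points (exact permutation p = 0.9). The part of the endothelial markers and that of Malat1 and Neat1 were not tested.

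**Figure D2:**
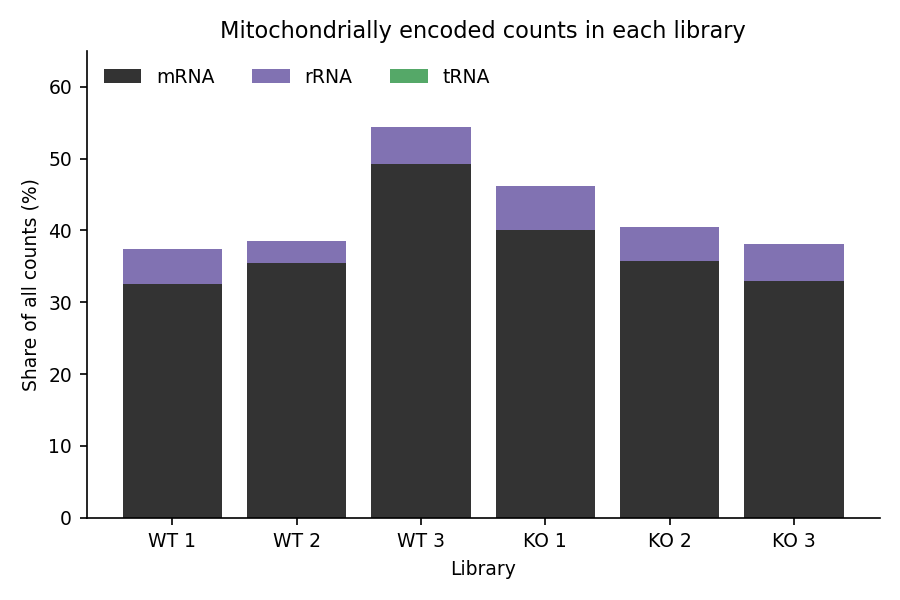
Share of all counts (percent) taken by mitochondrially encoded mRNA, rRNA and tRNA in each of the 6 libraries, stacked. WT 3 stands highest at 54.5%, and the tRNA layer, at most 0.0186%, is too thin to see.

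Levels of the genes were compared per length, as counts per countable window and as a percent of mt-Cytb in the same library. mt-Cytb (ENSMUSG00000064370, chrM:14145-15288, plus strand) encodes cytochrome b, the only mitochondrially encoded subunit of complex III. On this scale mt-Co1 was highest, at 147% ± 7.72 in WT and 145% ± 11.4 in KO (SD, n = 3 each). mt-Nd4 lay just above mt-Cytb, at 101% to 106% over the 6 libraries. The other complex I mRNAs followed, with mt-Nd1 at 51.3% to 61.1%, mt-Nd2 at 46.3% to 51.7% and mt-Nd5 at 34.4% to 39.1%. The ranges of mt-Nd1 and mt-Nd2 overlapped across libraries, but mt-Nd1 was above mt-Nd2 within each of the 6 libraries. Countable windows were 780 of 1594 for mt-Co1 and 503 of 1323 for mt-Nd4, so their ranks rest on part of each gene. Evenness of coverage along a gene was not tested.

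The rRNAs came next in poly(A)-enriched RNA. mt-Rnr2 (16S rRNA, of the large mitochondrial ribosomal subunit) lay between 16.2% and 30.8% and mt-Rnr1 (12S rRNA, of the small subunit) between 13.7% and 25.2%. These ranges overlapped across libraries, with mt-Rnr2 above mt-Rnr1 within each of the 6. mt-Nd6 (ENSMUSG00000064368, chrM:13552-14070), the sole mRNA on the minus strand, was at 8.80% ± 0.55 in WT and 6.39% ± 0.70 in KO. Among the tRNAs mt-Tl1, which lies between the 16S rRNA and mt-Nd1, was highest at 0.939% to 1.30%. The other 9 countable tRNAs lay between 0.0176% (mt-Ta) and 0.428% (mt-Tw).

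Among mRNAs and rRNAs, the largest relative difference in mean share of mitochondrial counts was in mt-Nd6, a membrane subunit of complex I. It took 0.971%, 0.909% and 0.931% of the mitochondrial counts of the WT libraries, against 0.629%, 0.736% and 0.580% of those of the KO libraries. All 3 KO libraries lay below all 3 WT libraries, with means of 0.937% ± 0.0317 in WT and 0.648% ± 0.0795 in KO (SD, n = 3 each). The exact permutation test gave the smallest p it can reach, 0.1, and 0.543 after Benjamini-Hochberg adjustment over the 19 members tested, so the difference did not pass a threshold of 0.05. The difference stayed between -0.332 and -0.255 percentage points when any single library was left out. mt-Nd6 was also lower in KO as a share of all counts, at 0.363%, 0.350% and 0.507% in WT against 0.290%, 0.298% and 0.221% in KO. Once libraries were scaled by TMM (the trimmed mean of M-values), the groups overlapped, at 2645, 3613 and 5805 CPM in WT against 3265, 3195 and 2138 CPM in KO.

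Against the mRNAs of the plus strand, mt-Nd6 counts stood at 1.13%, 0.997% and 1.04% in WT and at 0.729%, 0.838% and 0.677% in KO. The mean log2 ratio differed by -0.50, KO minus WT (exact permutation p = 0.1, adjusted p = 0.3 over 15 ratios). mt-Te, which adjoins mt-Nd6 on the same minus strand, had WT counts of 596, 786 and 547 and KO counts of 415, 535 and 375. The mt-Te share of mitochondrial counts overlapped between the groups (adjusted exact p = 0.543). Counting used the read strand, so mt-Nd6 reads were kept apart from the overlapping end of mt-Nd5. How well poly(A) selection captured mt-Nd6 was not tested.

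Other marker sums also separated the genotypes. Smooth muscle markers (4 of 4 tested) summed to 132 to 163 CPM in WT and 76.2 to 102 CPM in KO. Acta2 and Tagln separated, while Myh11 and Cnn1 overlapped, Myh11 at 20.9 to 31.6 CPM in WT and 15.3 to 23.9 CPM in KO. Genes of the response to cell dissociation (8 of 8 tested) summed to 345 to 364 CPM in WT and 229 to 300 CPM in KO. Jun held most of that sum and overlapped between groups, at 193 to 234 CPM in WT and 141 to 207 CPM in KO. Of the 8 genes only Hspa1b was called (log2 fold change -3.37, edgeR adjusted p = 0.0188), and Egr1 was positive at 0.20. B cell markers (3 of 3) summed to 3.21 to 8.33 CPM in WT and 28.9 to 33.5 CPM in KO. Cardiac muscle markers (6 of 6) overlapped, with 11.04 to 43.6 CPM in WT libraries and 13.8 to 18.1 CPM in KO libraries. Platelet markers (3 of 3) overlapped as well, with 24.6 to 37.7 CPM in WT libraries and 34.5 to 67.5 CPM in KO libraries. Their part in the mt-Nd6 difference was not tested.

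Of the 19 members with at least 10 counts in every library, 3 had shares of mitochondrial counts that did not overlap between groups, all lower in KO. Over all 14625 genes tested, counts per mitochondrial count did not overlap in 4.86%, made up of 1.9% with KO lower and 2.96% with KO higher. For nuclear genes that ratio also carries the mitochondrial share of the library, so it is not a like baseline for the members. In CPM, 17.8% of all genes tested did not overlap. The members that did not overlap were mt-Nd6, mt-Cytb and mt-Ti. mt-Cytb took 22.9%, 24.2% and 23.4% in WT and 21.8%, 22.8% and 22.4% in KO, so the lowest WT and the highest KO library were close. mt-Ti (chrM:3706-3774, isoleucine) took 0.00393%, 0.00527% and 0.00414% in WT and 0.00312%, 0.00295% and 0.00273% in KO. Each had an exact p of 0.1 and an adjusted p of 0.543. mt-Cytb overlapped between groups (exact p = 0.2) when taken as a share of mRNA counts alone or without the genes that share windows with a nuclear copy. The log2 ratio of mean shares was -0.60 for mt-Ti and -0.53 for mt-Nd6.

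The remaining 16 members overlapped, among them the tRNAs mt-Tq (435 to 533 counts per library), mt-Tt (240 to 492), mt-Tm (167 to 289) and mt-Tc (24 to 69). mt-Co1 took 23.2%, 22.9% and 24.5% in WT and 23.4%, 21.4% and 21.2% in KO (exact p = 0.3). mt-Nd1, a core membrane subunit of complex I, took 9.76%, 9.85% and 10.4% in WT and 10.5%, 10.4% and 10.6% in KO (exact p = 0.2). The means of mt-Nd2 (8.88% and 8.87%), mt-Nd4 (10.7% and 10.2%) and mt-Nd5 (12.4% and 12.6%), given as WT and KO, came with SDs of 0.474 to 0.824, and the groups overlapped.

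**Figure D3:**
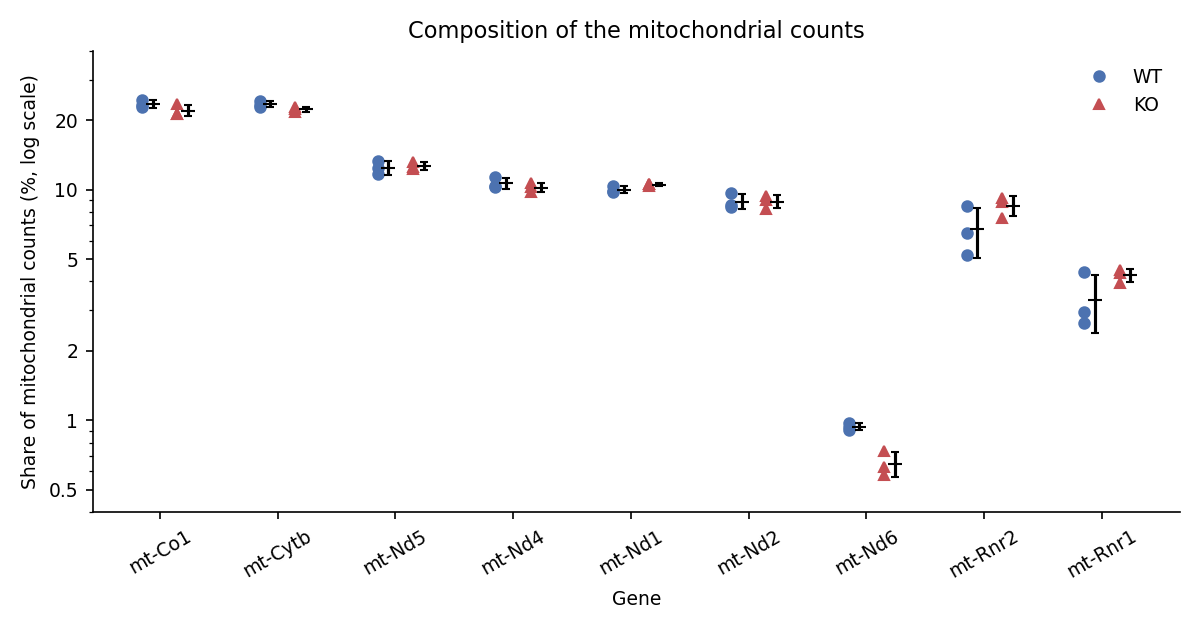
Share of mitochondrial counts (percent, log axis) of the 7 countable mRNAs and both rRNAs, with a symbol for each library and mean ± SD beside it, WT as circles and KO as triangles. mt-Nd6 separates, at 0.909% to 0.971% in WT against 0.580% to 0.736% in KO, while mt-Rnr1 and mt-Rnr2 spread most within WT.

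Summed by complex, the mRNAs kept nearly the same proportions. Complex I genes, of which 5 of 7 could be counted, held 47.1%, 48.9% and 47.1% of mitochondrial mRNA counts in WT and 48.0%, 50.1% and 49.5% in KO. Complex III, by mt-Cytb alone, held 26.3%, 26.3% and 25.8% in WT and 25.1%, 25.8% and 26.0% in KO. Complex IV, which rests on mt-Co1 alone of its 3 genes, held 26.6%, 24.8% and 27.0% in WT and 27.0%, 24.1% and 24.6% in KO. In all 3 cases the groups overlapped. The ratio of complex I to complex III counts did separate, at 179%, 186% and 183% in WT and 191%, 194% and 191% in KO, a log2 difference of 0.07 (exact p = 0.1, adjusted p = 0.3).

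The rRNAs varied most among WT libraries. They made up 12.9%, 7.85% and 9.43% of mitochondrial counts in WT and 13.1%, 11.5% and 13.6% in KO, so WT replicate 1 lay among the KO libraries. The rRNA to mRNA ratio was 14.8%, 8.52% and 10.4% in WT and 15.1%, 12.9% and 15.8% in KO, a log2 difference of 0.41 with overlapping groups (exact p = 0.2, adjusted p = 0.3). It was 0.63 without WT replicate 1, where the groups no longer overlapped (exact p = 0.1), and 0.23 without WT replicate 2. The 16S and 12S rRNAs moved together from library to library, with a 16S to 12S ratio of 192% to 219% over all 6 libraries and a KO minus WT log2 difference of -0.02 (exact p = 0.8).

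The tRNA genes as a class took 0.0367%, 0.0364% and 0.0342% of mitochondrial counts in WT and 0.0318%, 0.0307% and 0.0311% in KO, without overlap (exact p = 0.1). Of the 10 countable tRNAs, 8 had a lower mean share in KO, but only mt-Ti separated between groups. The largest differences were -0.00151 percentage points in mt-Ti and -0.00126 in mt-Te, against -0.00451 for the class. Some of the 8 barely differed, such as mt-Tw at -7.45e-05 and mt-Tl1 at -0.000259 percentage points. Of the 15 ratios compared, 5 did not overlap between groups, and 3 of these had the tRNA class as their denominator, with log2 differences of 0.19 (complex I), 0.12 (complex III) and 0.56 (rRNA). Each of the 5 had an exact p of 0.1, which any full separation of 3 against 3 gives, and an adjusted p of 0.3. Ratios that share a class are not independent of each other. tRNA counts from libraries of poly(A) RNA reflect a small selected part of tRNA-derived RNA and do not measure mature tRNA. The tRNA read from the minus strand set against those of the plus strand gave a log2 difference of 0.0034 (exact p = 1).

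**Figure D4:**
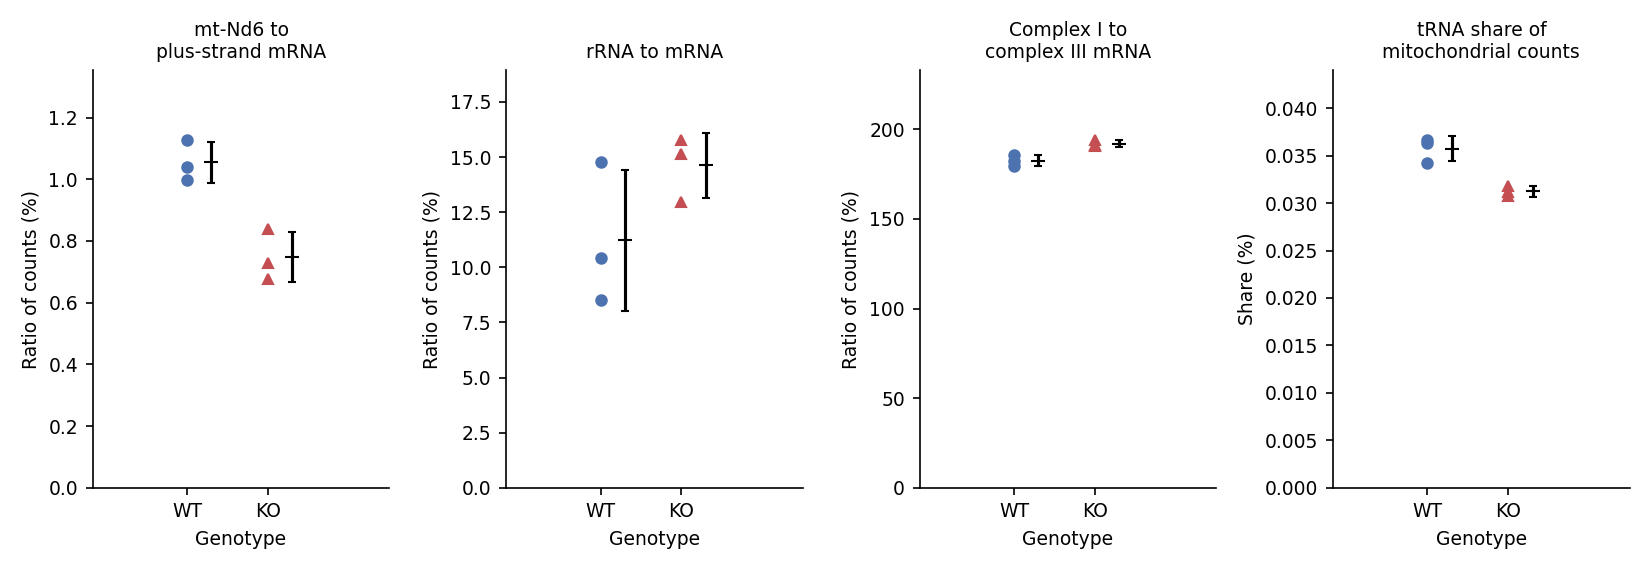
From left to right, mt-Nd6 counts over plus-strand mRNA counts, rRNA over mRNA, complex I over complex III mRNA (all in percent) and the tRNA share of mitochondrial counts (percent), one symbol per library with mean ± SD, axes from 0. The WT and KO symbols overlap for rRNA to mRNA, where WT runs from 8.52% to 14.8%, and do not overlap in the other panels.

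In the fit across all genes (edgeR quasi-likelihood test with TMM scaling), 22 members could be tested and 0 passed an adjusted p of 0.05, where 0.109% of all genes did. 0 members passed an unadjusted p of 0.05 either, where 10.3% of all genes did, and DESeq2 and limma-voom also called 0. The 22 members split into 10 with a higher and 12 with a lower KO level, with a median log2 fold change of -0.04. For mt-Rnr1 the log2 fold change was 0.46 (SE 0.48, adjusted p = 0.736) and for mt-Rnr2 it was 0.42 (SE 0.59, adjusted p = 0.806). For mt-Nd6 it was -0.49 (SE 0.39, adjusted p = 0.657), for mt-Ti -0.55 (SE 0.32, adjusted p = 0.577) and for mt-Te -0.32 (SE 0.25, adjusted p = 0.643). All 5 kept their sign with any 1 library left out, but their sizes moved. Without WT replicate 3 the values were 0.72 for mt-Rnr1, 0.75 for mt-Rnr2, -0.14 for mt-Nd6, -0.29 for mt-Ti and -0.18 for mt-Te. Without WT replicate 2 mt-Rnr1 was at 0.26 and mt-Rnr2 at 0.20, and without KO replicate 1 they were at 0.27 and 0.22. Without WT replicate 1 mt-Te was at -0.54, mt-Ti at -0.85 and mt-Rnr2 at 0.29, and mt-Nd6 was at -0.72. Without KO replicate 3 mt-Te was at -0.17 and mt-Nd6 at -0.32.

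The abundant mRNAs lay close to 0 in this fit but with wide errors. The log2 fold changes were -0.07 for mt-Co1, -0.05 for mt-Cytb, -0.04 for mt-Nd4, 0.02 for mt-Nd2, 0.05 for mt-Nd5 and 0.09 for mt-Nd1, with SEs of 0.62 to 0.81. All 6 changed sign when single libraries were left out. mt-Tv had the most positive value, 1.16 (SE 0.50, adjusted p = 0.489), from WT counts of 9, 7 and 4 and KO counts of 10, 16 and 11. It was the 1 member of the 22 whose CPM did not overlap between groups, where 17.8% of all genes tested did not overlap. mt-Tv passed the expression filter only through its KO libraries, as its WT counts were all below 10. Its rank and its separation were therefore partly set by the filter.

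The nuclear genes that express mitochondrial DNA were examined as 8 lists. Of their 164 tested genes, 0 passed an adjusted p of 0.05 in edgeR, 3 with a higher and 11 with a lower KO level passed an unadjusted p of 0.05, and the median log2 fold change was -0.08, against 0.03 over all genes. These 14 are 8.54% of the list genes, near the 10.3% of all genes, which split into 822 higher and 684 lower. The 14 became 5 with scaling to total counts and 0 with scaling to mitochondrial counts. The highest and lowest values below are those of genes with a mean log2 CPM above 1. In the transcription list (8 tested, 4 positive and 4 negative log2 fold changes) Tfam, which packages mitochondrial DNA and opens its promoters, had the highest value at 0.10 and Mterf3 the lowest at -0.22. Polrmt, the mitochondrial RNA polymerase, had a mean CPM of 3.61 ± 0.29 in WT and of 3.24 ± 1.12 in KO (SD, n = 3 each).

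RNA processing and stability genes (20 tested, 6 positive and 14 negative) ranged from Elac2, the nuclease that trims tRNA ends, at 0.27 to Pde12, which removes poly(A) tails, at -0.43. Among the modification enzymes (14 tested, 5 positive and 9 negative) Nsun3, which methylates the methionine tRNA, had 0.44 and Cdk5rap1 had -0.88 (adjusted p = 0.439 and 0.468). The mitochondrial aminoacyl-tRNA synthetases (17 tested, 10 positive and 7 negative) ranged from Vars2 at 0.42 to Ears2 at -0.35. None of these genes passed the adjusted threshold.

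Genes that copy mitochondrial DNA (10 tested, 6 positive and 4 negative) ranged from Tk2, a thymidine kinase, at 0.52 (adjusted p = 0.307) to Polg, the DNA polymerase, at -0.24. Biogenesis regulators (7 tested, 4 positive and 3 negative) ranged from Ppargc1a at 0.53 to Pprc1 at -0.54, and translation factors (12 tested, 3 positive and 9 negative) from Mtrf1 at 0.68 to Mtfmt at -0.37. Mitochondrial ribosomal proteins were the largest list (76 tested, 18 positive and 58 negative, median -0.09), from Mrps10 at 0.32 to Mrpl16 at -0.57 (adjusted p = 0.388). Of these, 6 (7.89%, against 10.3% of all genes) passed an unadjusted p of 0.05, all with lower KO levels. Over all genes tested, 7911 were positive and 6714 negative. Among genes below that mean level, values further out were Mterf2 at 0.65 and Mterf1a at -0.74 (transcription), Pars2 at 0.56 (synthetases), Polg2 at 0.79 (copying) and Ppargc1b at 0.69 (biogenesis).

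The nuclear-encoded partners within complexes I, III, IV and V had 8 positive and 32 negative log2 fold changes among 40 tested, with 0 called and a median of -0.10. All 10 tested complex IV subunits were negative, with a median of -0.18 and Cox6b1 lowest at -0.30 (edgeR adjusted p = 0.477).

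**Figure D5:**
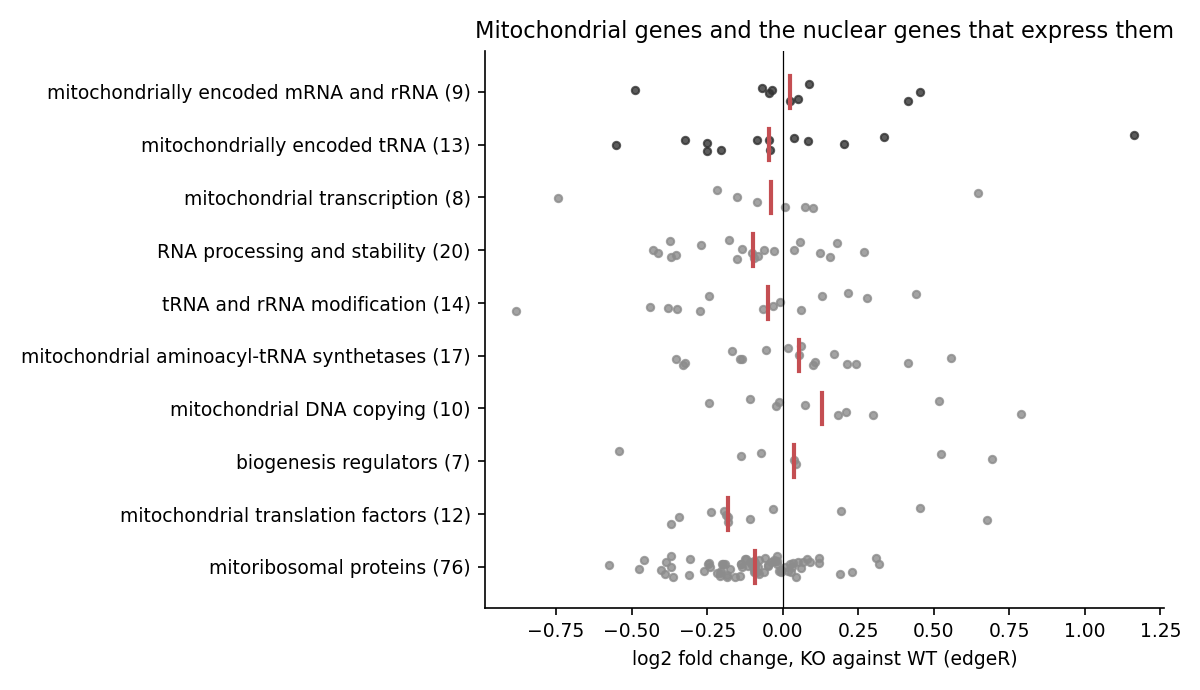
log2 fold change of KO against WT from edgeR for the 22 tested mitochondrially encoded genes (dark points, mRNA and rRNA above, tRNA below) and for the 8 lists of nuclear genes that express mitochondrial DNA (grey points, number tested in brackets), with each median as a red line. No point passed the adjusted threshold, and the list medians lie between -0.18 and 0.13.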

How the data were processed

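Poly(A) RNA of CD31-enriched lung cells was made into stranded libraries and sequenced in single reads of 50 bases. The processing notes name STAR 2.5.4b, mm10 and featureCounts (Subread 2.0.0), and the study's methods name the Ensembl 84 annotation (GRCm38) for mm10. The methods also state alignment to the human genome and quantification by Kallisto, which the deposited tables of mouse genes do not show. The deposited values are raw counts per gene, from reverse-stranded, uniquely aligned reads, and were used as deposited. The study's methods name CD144 beads for the sort where the labels name CD31, and both are given here as stated.

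Members were the genes on chromosome M, and 37 of 37 have the same coordinates in GENCODE M21. Counts were tested in edgeR 4.0.16 (R 4.3.3, filterByExpr, TMM, quasi-likelihood, Benjamini-Hochberg over 14625 genes). CPM are edgeR CPM with TMM. Shares and ratios within libraries were compared by exact two-sided permutation tests. Shares of single genes were tested for members with at least 10 counts in every library. Class shares and ratios between classes summed all members of each class, including those with fewer counts. Scripts were tested on simulated data. Floors cover counting error only, while the SDs and SEs given include the spread between libraries.

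Every member is named. From the nuclear lists, genes with an adjusted p under 0.05 were to be named, and otherwise the highest and lowest log2 fold change of each list among genes with a mean log2 CPM above 1, together with nuclear copies that hold counts and cell markers. Polrmt, Mterf1a, Mterf2, Pars2, Polg2 and Ppargc1b are outside that rule and were named after their values were seen. The members and lists were chosen with earlier results of these data known, although the rule for the members used the chromosome alone. DESeq2 1.42.0, limma 3.58.1 (voom), other scalings and filters, a replicate block and the omission of each library were tried as alternatives. The lowest chi-square per degree of freedom between libraries of a group was 40.28, so no libraries were duplicates.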

Additional observations from a re-analysis of the deposited data

How the results depend on the processing

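Calls were the same under the tests, scalings and filters tried, with 0 mitochondrial genes and 0 genes of the nuclear lists called each time. The mitochondrial share (KO minus WT) ran from -4.87 to 3.66 percentage points when each library was left out. The number of members with separate shares was then 4 to 7 against 3, and of separate ratios 5 to 9 against 5, where fewer libraries per group make separation easier. It was 2 among mRNAs alone and 2 without the genes that share windows with a nuclear copy. The replicate numbers were not taken to pair the samples. Correlations were -0.0814, 0.219 and 0.0111 between libraries of the same number, and not every library correlated best with its own number. With 3 libraries a group, these values cannot show whether libraries of the same number shared a preparation. With the replicate block, 10 shares and 11 ratios had paired differences of 1 sign, a looser criterion, and no mitochondrial gene was called. The block gave log2 fold changes of 0.0042 (mt-Co1), 0.036 (mt-Nd4) and 0.027 (mt-Cytb).

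Log2 fold changes near 0 changed sign, and the cause was not tested. Left-out libraries gave -0.17 to 0.48 for mt-Nd1, -0.24 to 0.33 for mt-Nd2, -0.32 to 0.33 for mt-Co1, -0.30 to 0.28 for mt-Nd4, -0.22 to 0.39 for mt-Nd5 and -0.30 to 0.30 for mt-Cytb. mt-Nd2 gave -0.0017 with DESeq2, -0.00036 scaled to mitochondrial counts and -0.063 scaled to total counts, where mt-Nd5 gave -0.036. limma-voom gave 0.0059 for mt-Nd4 and 0.015 for mt-Cytb. Of the ratios, left-out libraries gave -0.057 to 0.033 for 16S to 12S, -0.20 to 0.12 for minus-strand to plus-strand tRNA and -0.015 to 0.083 for mt-Nd1 to mt-Nd5. The mt-Nd6 log2 fold change was negative under every setting of the fit, from -0.72 to -0.14 over left-out libraries. With 3 libraries a group, the exact tests cannot pass 0.05 (smallest p 0.1), and genes within the nuclear copy are limited by their shared windows at any depth.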
